A study of Mus musculus with 9 samples.

Results

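The 10 secreted chemokines described here were followed across 3 sorted myeloid populations of the mouse: the CC chemokines Ccl2, Ccl3, Ccl4, Ccl6, Ccl7, Ccl8, Ccl9, Ccl12 and Ccl24, and the CXC chemokine Pf4. They are 10 of the 19938 genes measured, chosen by name from a list of inflammatory chemokines, and each was read by the only array probe set annotated to it alone. Lymph node macrophages of the T cell zone (TZM), CD8a+DC (cross-presenting dendritic cells) and brain macrophages labelled microglia were sorted, with 3 biological replicates of each and 1 array per replicate. All came from CX3CR1 gfp+/- mice, in which 1 allele of the fractalkine receptor gene is replaced by green fluorescent protein (GFP), so the controls carry the same reporter and no group is wild type. TZM were gated as GFP high, MertK+, CD11b+ and CD169-, microglia as GFP high, CD11b+ and CD45+, and CD8a+DC as CD64-, CD11c high, MHCII high and CD8a+. The sample fields give the lymph node as the source of CD8a+DC and the sorting protocol gives the spleen, and the labels give no age or sex and do not say whether animals were pooled. Every tissue was digested with collagenase at 37 °C before bead enrichment and sorting, so all levels are those of cells that had passed through this handling.

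Chemokines are small secreted proteins that direct leukocyte movement through G protein-coupled receptors. Ccl2, Ccl7 and Ccl12 recruit monocytes through Ccr2, mouse Ccl8 acts on Ccr8, Ccl3 and Ccl4 draw macrophages and T cells, Ccl6 and Ccl9 act on Ccr1, and Ccl24 attracts eosinophils through Ccr3. Pf4 (platelet factor 4, also called Cxcl4) is stored in platelet granules and is also made by macrophages. Many of these genes are induced quickly in macrophages by microbial products, cytokines or tissue damage.

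Levels are log2 RMA values, in which a difference of 1 is a doubling, given as mean ± SD of 3 arrays. As list means, the macrophage, microglia and type 1 dendritic cell markers followed the labels. The lists include genes of the sort gates, namely Mertk, Fcgr1 (which encodes CD64) and Cd8a. The sort itself selected for the levels of those genes, so they are no independent check of the labels. The 9 macrophage markers averaged 9.65 to 9.85 in TZM, 10.75 to 10.83 in microglia and 4.99 to 5.20 in CD8a+DC. The 9 microglia markers averaged 6.60 to 6.76, 11.07 to 11.19 and 5.19 to 5.31 in that order. The 10 dendritic cell markers averaged 6.12 to 6.31, 5.94 to 6.06 and 9.71 to 9.81. Single markers departed. Cd14 was at 7.78 in TZM and 7.31 in CD8a+DC, and P2ry12 (9.80), Tmem119 (9.18) and Irf8 (9.71) were high in TZM. Csf1r, which binds the main macrophage growth factor, was at 11.22 ± 0.09 in TZM, 12.16 ± 0.03 in microglia and 5.21 ± 0.33 in CD8a+DC. Sall1, a microglial transcription factor, was at 9.84 ± 0.34 in microglia, and Xcr1, a receptor of cross-presenting dendritic cells, was at 10.71 ± 0.05 in CD8a+DC, each far above the other 2 groups. One array in each macrophage group stood apart. Microglia replicate 2 was the lowest of its group for 10 of the 11 markers of brain border macrophages (the macrophages of meninges, vessels and choroid plexus), whose mean level was 5.30 there against 6.16 and 6.07 in replicates 1 and 3. TZM replicate 2 held the highest mean level of 9 neutrophil markers (5.53, against 4.61 and 5.12) and of 7 salivary gland markers (6.77, against 5.93 and 5.48). Chemokine results among the 10 whose call or direction changed without either array are given below with and without it. Other differences are given with all arrays unless stated. In sorted bulk RNA, fewer cells of a type and less RNA per cell cannot be told apart.

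As a low end of the scale, the 1027 olfactory receptor genes had array medians of 3.32 to 3.37 and 95th percentiles of 4.47 to 4.65. All 10 chemokines lay above their array's 95th percentile on each TZM array. In microglia 10, 9 and 10 did so, and in CD8a+DC 7, 6 and 7. Ccl8, Ccl12 and Pf4 passed it on 0 of 3 CD8a+DC arrays, so their differences from CD8a+DC start from the bottom of the scale and tend to understate the change. Ccl7 passed it on 2 of 3 CD8a+DC arrays.

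**Figure D1:**
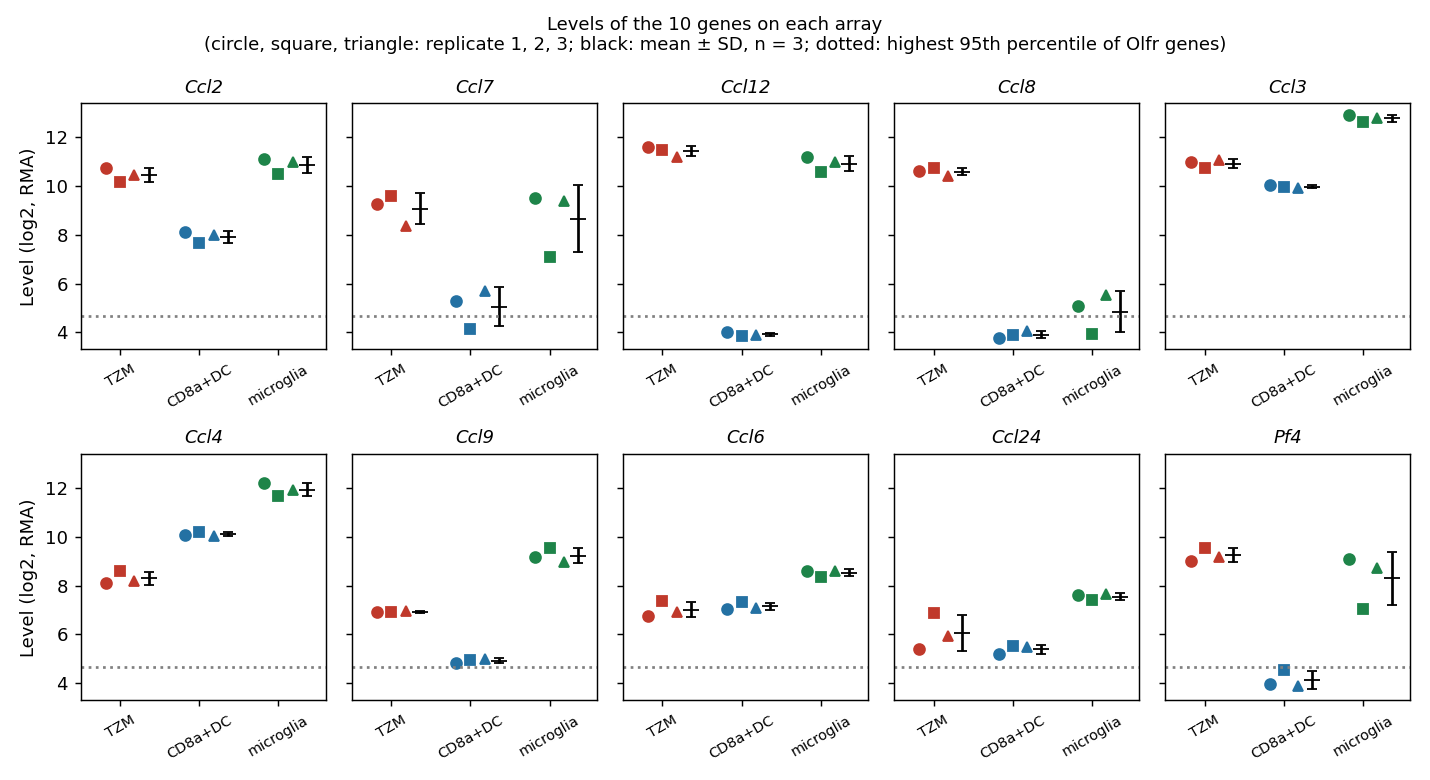
Log2 RMA level (vertical axis) of each of the 10 chemokines on each of the 9 arrays, with 1 point per array, the mean ± SD of each group in black and the highest olfactory receptor 95th percentile as a dotted line. Ccl12 sat near 4 in CD8a+DC and above 10 in both macrophage groups, whereas Ccl8 was above 10 in TZM only and below 6 elsewhere.

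The macrophage groups expressed most of these chemokines above CD8a+DC, but they did not share one profile. Calls required a limma p, adjusted by Benjamini-Hochberg over all 19938 genes, under 0.05 and a log2 difference of at least 1 in size. Against CD8a+DC, TZM were higher in 6 of the 10, namely Ccl12, Ccl8, Pf4, Ccl7, Ccl2 and Ccl9, where 4.71% of all genes were called higher. They were lower in 1, Ccl4, where 4.03% of all genes were called lower. Microglia were higher than CD8a+DC in 9 of the 10, all but Ccl8, and lower in 0, against 5.15% and 6.01% of all genes. Set directly against microglia, TZM were higher in 1 (Ccl8, where 4.25% of all genes were called) and lower in 5 (Ccl3, Ccl4, Ccl6, Ccl9 and Ccl24, where 3.4% were called). The median difference over the 10 was 2.28 for TZM less CD8a+DC, 2.88 for microglia less CD8a+DC and -0.95 for TZM less microglia, where the median over all genes was 0.02, 0.01 and 0.01. The 3 comparisons share arrays pairwise, so their counts are not independent of each other. The labels call the replicates biological without naming animals, so a p-value here measures the spread between these samples.

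**Figure D2:**
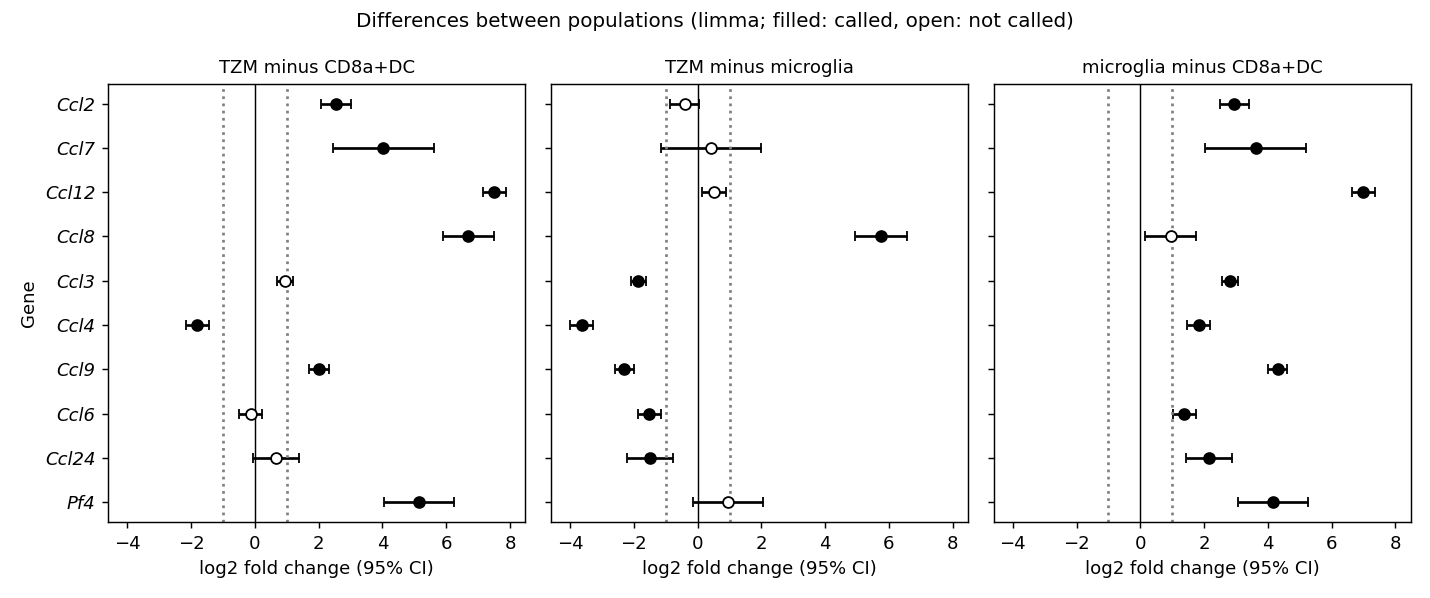
Log2 difference with its 95% confidence interval (horizontal axis) for each chemokine in the 3 comparisons. TZM less CD8a+DC ran from -1.81 for Ccl4 to 7.51 for Ccl12, and TZM less microglia from -3.64 for Ccl4 to 5.75 for Ccl8.

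Ccl12, a Ccr2 ligand, was high in both macrophage groups and at the bottom of the scale in CD8a+DC. It was at 11.60, 11.49 and 11.20 on the TZM arrays, 11.18, 10.57 and 10.99 on the microglia arrays, and 4.0, 3.86 and 3.90 on the CD8a+DC arrays. No CD8a+DC array came near them. The TZM excess over CD8a+DC was 7.51 (SE 0.16, adjusted p = 2.6e-08). The microglia excess over CD8a+DC was 7.0 (SE 0.16, adjusted p = 1.7e-08). Between the macrophage groups the TZM mean was 0.51 higher, with a 95% interval of 0.14 to 0.88 and an adjusted p of 0.059. That difference was also under the log2 minimum of 1, so it was not called. The TZM arrays all lay above the microglia arrays, as they did for 3156 of the 19938 genes.

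Ccl2, the main monocyte attractant of the Ccr2 group, was present in all 3 populations and lowest in CD8a+DC. Its levels were 10.75, 10.18 and 10.45 in TZM, 11.10, 10.50 and 10.99 in microglia, and 8.10, 7.65 and 7.99 in CD8a+DC. The arrays of the macrophage groups overlapped with each other and lay wholly above CD8a+DC. The difference from CD8a+DC was 2.54 in TZM (SE 0.20, adjusted p = 3.4e-05) and 2.95 in microglia (SE 0.20, adjusted p = 9.8e-06). TZM less microglia was -0.41, with a 95% interval of -0.87 to 0.06.

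Ccl7, the remaining Ccr2 ligand, varied most between replicates. TZM arrays read 9.27, 9.60 and 8.37, microglia arrays 9.52, 7.10 and 9.38, and CD8a+DC arrays 5.29, 4.15 and 5.71. Microglia replicate 2 was more than 2 log2 units below its group, yet still above every CD8a+DC array. The excess over CD8a+DC was 4.03 in TZM (SE 0.69, adjusted p = 0.0031) and 3.61 in microglia (SE 0.69, adjusted p = 0.0045). Without microglia replicate 2 the latter was 4.4. TZM less microglia was 0.41 with a 95% interval of -1.16 to 1.99, and it turned to -0.37 (adjusted p = 0.72) without that array, so the 2 macrophage groups could not be ordered for Ccl7.

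Ccl8 separated TZM from both other populations. It was at 10.61, 10.75 and 10.43 on the TZM arrays, 5.07, 3.92 and 5.55 on the microglia arrays and 3.76, 3.88 and 4.05 on the CD8a+DC arrays. Every TZM array was high, and the microglia and CD8a+DC arrays overlapped near the bottom of the scale. TZM exceeded CD8a+DC by 6.70 (SE 0.35, adjusted p = 2.6e-06). TZM exceeded microglia by 5.75 (SE 0.35, adjusted p = 8.4e-06), where 1 of the 3 microglia arrays was also below the olfactory receptor 95th percentile. Microglia less CD8a+DC was 0.95 (adjusted p = 0.09) and was not called. Without microglia replicate 2, the lowest of its group, it was 1.41 and was called (adjusted p = 0.00058).

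Ccl3 and Ccl4, attractants of macrophages and T cells, were both highest in microglia but differed in where TZM stood. Ccl3 was at 12.92, 12.63 and 12.80 in microglia, 11, 10.72 and 11.05 in TZM and 10.05, 9.96 and 9.93 in CD8a+DC. The groups did not overlap, with TZM in the middle. TZM less microglia was -1.86 (SE 0.11, adjusted p = 5.9e-06). The TZM excess over CD8a+DC was 0.95 (SE 0.11, adjusted p = 0.00029), just under the fold minimum. It passed that minimum without TZM replicate 2, at 1.05, and after quantile normalization, at 1.01.

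Ccl4 was at 12.19, 11.67 and 11.94 in microglia, 10.10, 10.19 and 10.03 in CD8a+DC and 8.12, 8.60 and 8.17 in TZM. Here TZM were the lowest group on every array. The difference from microglia was -3.64 (SE 0.16, adjusted p = 1.2e-06) and from CD8a+DC -1.81 (SE 0.16, adjusted p = 6.5e-05). Ccl4 was the only one of the 10 called lower in TZM than in CD8a+DC.

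Ccl9, a Ccr1 ligand, gave 3 separate steps. It was at 9.20, 9.54 and 8.96 in microglia, 6.91, 6.91 and 6.98 in TZM and 4.83, 4.96 and 5.0 in CD8a+DC. No groups overlapped, and the order was microglia, TZM, CD8a+DC. TZM exceeded CD8a+DC by 2.01 (SE 0.13, adjusted p = 1.1e-05) and lay below microglia with a difference of -2.30 (SE 0.13, adjusted p = 6e-06).

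Ccl6, which shares Ccr1 with Ccl9, was higher in microglia only. Levels were 8.61, 8.36 and 8.61 in microglia, 6.75, 7.36 and 6.94 in TZM, and 7.04, 7.32 and 7.09 in CD8a+DC. TZM and CD8a+DC overlapped, with a difference of -0.13 and a 95% interval of -0.49 to 0.23. Microglia exceeded TZM and CD8a+DC, the respective differences being -1.51 for TZM less microglia (SE 0.16, adjusted p = 0.00021) and 1.38 for microglia less CD8a+DC (SE 0.16, adjusted p = 0.00023).

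Ccl24, the eosinophil attractant, was also highest in microglia. It was at 7.61, 7.40 and 7.65 in microglia, 5.40, 6.87 and 5.92 in TZM, and 5.19, 5.52 and 5.48 in CD8a+DC. TZM replicate 2 stood above the rest of its group but below every microglia array. Microglia exceeded CD8a+DC by 2.16 (SE 0.32, adjusted p = 0.001), and TZM less microglia was -1.49 (SE 0.32, adjusted p = 0.011). TZM less CD8a+DC was 0.67 (95% interval -0.06 to 1.39), and was not called. It was 0.26 without TZM replicate 2 (adjusted p = 0.39) and 1.0 without TZM replicate 1 (adjusted p = 0.036), just under the fold minimum.

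Pf4 was high in both macrophage groups and at the bottom of the scale in CD8a+DC. TZM arrays read 9.03, 9.56 and 9.19, microglia arrays 9.11, 7.05 and 8.72, and CD8a+DC arrays 3.97, 4.54 and 3.86. TZM exceeded CD8a+DC by 5.13 (SE 0.48, adjusted p = 9.2e-05), and microglia did so by 4.17 (SE 0.48, adjusted p = 0.00024). Microglia replicate 2 was again the low array. TZM less microglia was 0.96 (95% interval -0.13 to 2.06) with it and 0.34 (adjusted p = 0.45) without it, so no difference was called.

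Because Pf4 is a platelet product, 9 of 13 listed platelet markers were read beside it. Their summed level was 44.86 to 47.12 in TZM, 45.63 to 46.05 in microglia and 42.88 to 43.64 in CD8a+DC. Itga2b, the platelet integrin chain, was at 4.69 ± 0.11 in TZM, 4.70 ± 0.14 in microglia and 4.64 ± 0.03 in CD8a+DC. Ppbp, the platelet chemokine whose gene lies next to Pf4, was at 3.68 ± 0.19, 3.30 ± 0.21 and 3.53 ± 0.01 in the same order. Clec1b, a platelet receptor also found on some myeloid cells, was at 7.22 ± 0.39 in TZM, 3.90 ± 0.11 in microglia and 4.36 ± 0.03 in CD8a+DC. Gp9, a subunit of the platelet von Willebrand factor receptor, had means of 5.45, 7.48 and 6.49 and the integrin chain Itgb3 means of 4.81, 6.39 and 4.77, both highest in microglia. Treml1 had means of 5.99, 6.51 and 6.02. The part of these markers in the Pf4 levels was not tested.

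All of the 10 chemokines but Ccl9 were lowest within their group on microglia replicate 2, the position held by 31.2% of all genes on that array. The drop was deepest for Pf4, Ccl7 and Ccl8. On the same 3 microglia arrays Mrc1, the mannose receptor of border macrophages, was at 8.96, 7.21 and 8.54, and Ms4a7 was at 6.80, 4.37 and 6.63. Stab1, another listed border marker, moved little, at 8.47, 8.41 and 8.64. Ttr, the transthyretin gene of choroid plexus epithelium, was at 12.15, 5.48 and 11.83. The summed level of the 11 border macrophage markers was 58.27 to 67.74 in microglia, 67.59 to 72.28 in TZM and 47.37 to 49.32 in CD8a+DC. That of 5 choroid plexus markers was 22.57 to 30.48, 20.52 to 21.27 and 20.35 to 20.88, and most of its spread in microglia was Ttr. The part of these markers in the microglial levels of Pf4, Ccl7 and Ccl8 was not tested. Leaving out this array, which had the lowest border marker level, keeps the arrays where those markers were high, and the excess over CD8a+DC was then 4.79 for Pf4 and 4.4 for Ccl7.

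TZM replicate 2 was the highest of its group for 6 of the 10 chemokines, a position held by 35.6% of all genes. Ccl24 moved furthest there. On TZM replicates 1, 2 and 3 the neutrophil gene S100a8 was at 5.89, 9.28 and 7.32, and the salivary gene Bpifa2 was at 10.24, 12 and 9.29. The 9 neutrophil markers summed to 41.53 to 49.77 in TZM, 37.55 to 38.45 in CD8a+DC and 36.71 to 37.47 in microglia. The 7 salivary markers summed to 38.33 to 47.40, 26.50 to 28.25 and 26.26 to 27.28. Their part in the Ccl24 level was not tested. The summed levels of T cell, B cell, and stromal and endothelial markers also stood higher in TZM. The 6 T cell markers summed to 35.70 to 37.15 in TZM, against 28.11 to 29.20 in CD8a+DC and 26.62 to 27.12 in microglia. Most of that excess was Cd28, higher than in CD8a+DC by 4.84, while Cd5 had means of 5.08 in TZM, 5.76 in CD8a+DC and 5.17 in microglia. The 5 B cell markers summed to 27.86 to 28.71 in TZM, 25.52 to 25.79 in CD8a+DC and 22.45 to 23.93 in microglia, although Ms4a1 was highest in CD8a+DC. The 8 markers of stroma and endothelium summed to 44.62 to 44.99, 40.38 to 41.53 and 41.08 to 41.40. The endothelial cadherin Cdh5 was at 7.65 ± 0.11, 5.38 ± 0.15 and 5.24 ± 0.08, and the stromal gene Dcn had means of 4.76, 3.54 and 3.67. Other endothelial markers did not follow Cdh5. Pecam1 had means of 6.65 in TZM, 6.83 in CD8a+DC and 6.51 in microglia, and Cldn5 means of 4.63, 4.69 and 4.77. Siglec1 encodes CD169, for which TZM were gated as negative. Its means were 7.38 in TZM, 4.89 in CD8a+DC and 5.56 in microglia, and it was called higher in TZM than in either. The part of these markers in the TZM chemokine levels was not tested.

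**Figure D3:**
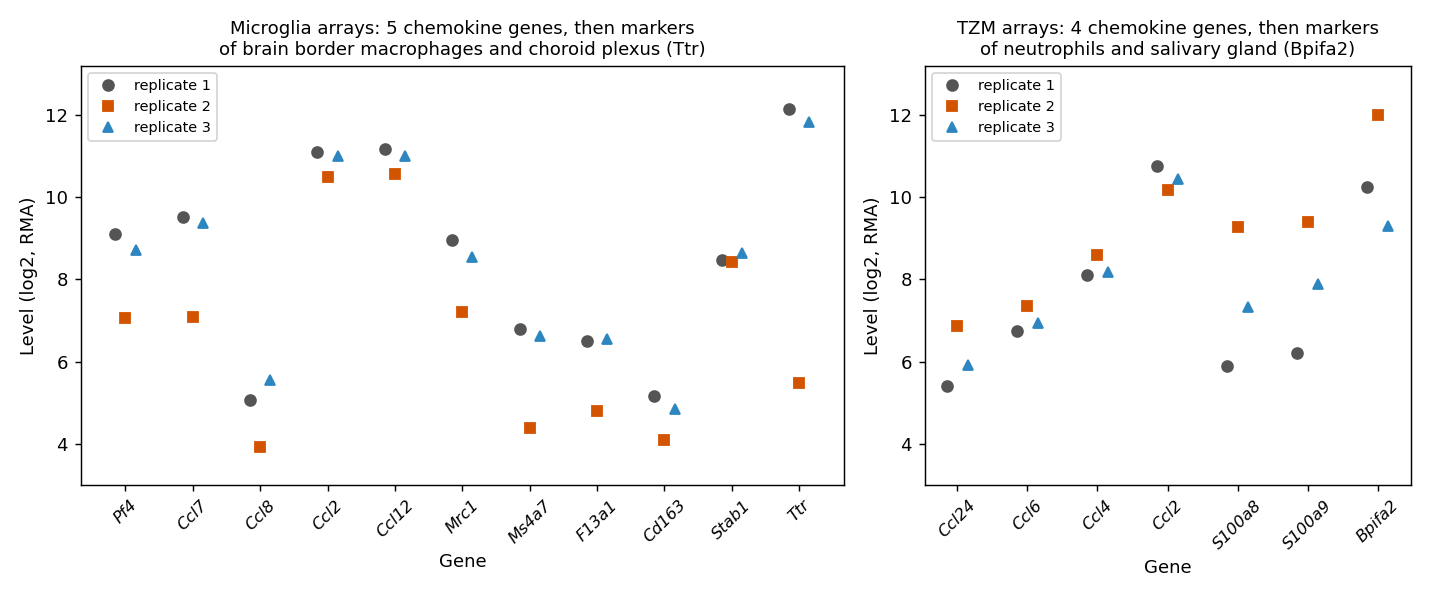
Log2 RMA level (vertical axis) on the 3 microglia arrays (left) and the 3 TZM arrays (right) for chosen chemokines and marker genes of other cell types, with 1 symbol per replicate. Microglia replicate 2 lay below its group in Pf4, Ccl7 and Ccl8 and in Mrc1, Ms4a7 and Ttr, and TZM replicate 2 lay above its group in Ccl24, S100a8 and Bpifa2.

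The CC chemokines other than Ccl24 lie in 2 runs of neighbours on mouse chromosome 11 in the RefSeq table of assembly GRCm38.p6. The first run holds Ccl2, Ccl7, Ccl11, Ccl12, Ccl8 and Ccl1, and the second holds Ccl5, Ccl9, Ccl6, Ccl3 and Ccl4. In the first run 4 of 4 members were called higher in TZM than in CD8a+DC, where 4.71% of all genes were called. In that run 0 of 4 were called lower in TZM than in microglia, which is near the 3.4% of all genes. In the second run 4 of 4 were called lower in TZM than in microglia (3.4% of all genes). Against CD8a+DC 1 of its members was higher (Ccl9), 1 lower (Ccl4) and 2 not called (Ccl3 and Ccl6), where 4.71% and 4.03% of all genes were called higher and lower. This grouping was made with the values known and carries no test. Neighbours outside the member list did not share the levels. Ccl11, between Ccl7 and Ccl12, was at 4.52 ± 0.03 in TZM, 4.44 ± 0.03 in CD8a+DC and 4.56 ± 0.06 in microglia. Ccl5, which draws T cells and lies at the edge of the second run, was at 10.80 ± 0.17 in TZM, 11.47 ± 0.05 in CD8a+DC and 6.27 ± 0.49 in microglia, so that TZM exceeded microglia by 4.53 (adjusted p = 1.8e-06). Ccl24 and Pf4 lie on chromosome 5.

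**Figure D4:**
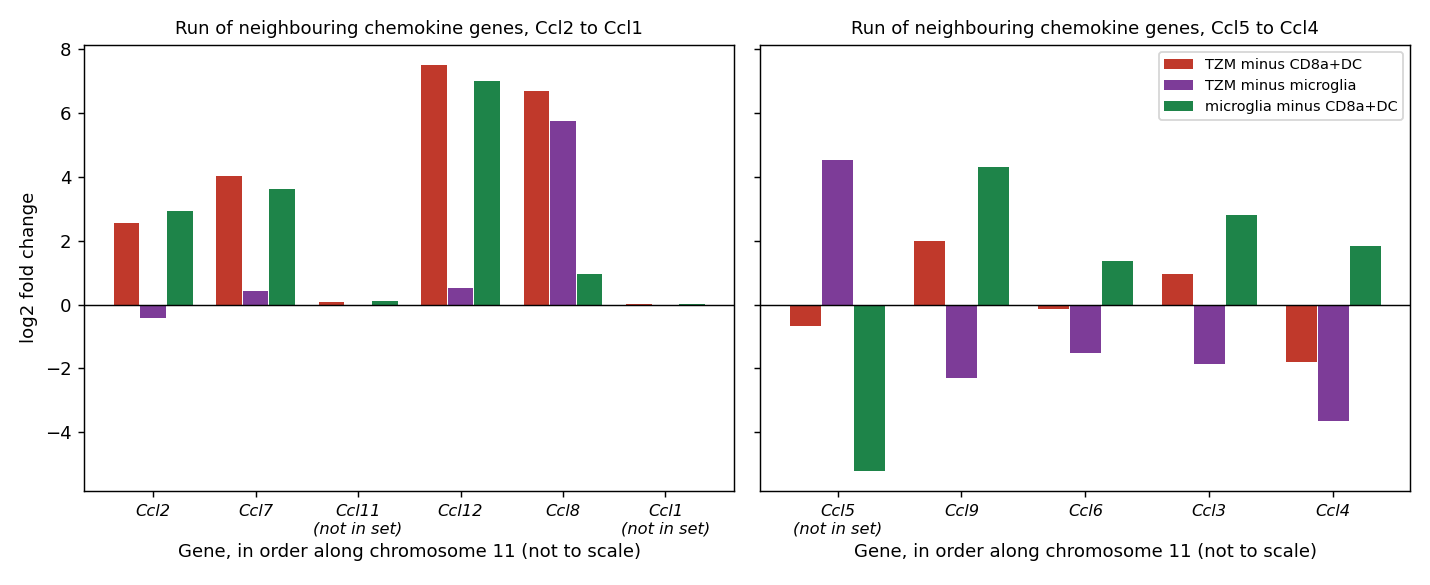
Log2 differences (vertical axis, 1 bar per comparison) of the chemokine genes in their order along chromosome 11 (horizontal axis, equal spacing, not to scale), with the non-member neighbours Ccl11, Ccl1 and Ccl5. TZM less microglia ran from -0.41 for Ccl2 to 5.75 for Ccl8 along the first run and was below 0 for Ccl9, Ccl6, Ccl3 and Ccl4.

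Promoter sequence was held for 6 of the 10 (Ccl3, Ccl6, Ccl8, Ccl9, Ccl12 and Pf4) and not for Ccl2, Ccl4, Ccl7 and Ccl24. The 4 shown are from RefSeq on GRCm38.p6 and give the 250 bases before the gene start, written 5′ to 3′ on the gene's strand. Ccl12 (chr11:82101595-82101844, + strand) and Ccl8 (chr11:82114935-82115184, + strand) are shown because both of these neighbours exceeded CD8a+DC in TZM, while in microglia Ccl12 was called above CD8a+DC and Ccl8 was not. Ccl9 (chr11:83578637-83578886, - strand) stands for the second run, and Pf4 (chr5:90772185-90772434, + strand) for the gene outside the CC family. Capitals mark matches to any of 6 searched motifs.
Ccl12: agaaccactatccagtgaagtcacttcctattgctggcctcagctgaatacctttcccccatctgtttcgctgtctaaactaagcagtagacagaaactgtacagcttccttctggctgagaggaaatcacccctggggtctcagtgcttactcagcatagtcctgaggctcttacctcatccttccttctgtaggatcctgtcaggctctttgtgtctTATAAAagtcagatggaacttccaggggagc
Ccl8: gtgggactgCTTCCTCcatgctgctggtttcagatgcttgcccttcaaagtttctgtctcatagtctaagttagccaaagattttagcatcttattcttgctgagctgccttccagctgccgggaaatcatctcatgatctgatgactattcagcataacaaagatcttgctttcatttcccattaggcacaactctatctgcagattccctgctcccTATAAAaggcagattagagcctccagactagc
Ccl9: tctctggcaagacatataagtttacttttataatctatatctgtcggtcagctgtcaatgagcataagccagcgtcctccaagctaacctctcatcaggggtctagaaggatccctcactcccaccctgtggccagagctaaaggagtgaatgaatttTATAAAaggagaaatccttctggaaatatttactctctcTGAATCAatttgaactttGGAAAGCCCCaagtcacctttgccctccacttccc
Pf4: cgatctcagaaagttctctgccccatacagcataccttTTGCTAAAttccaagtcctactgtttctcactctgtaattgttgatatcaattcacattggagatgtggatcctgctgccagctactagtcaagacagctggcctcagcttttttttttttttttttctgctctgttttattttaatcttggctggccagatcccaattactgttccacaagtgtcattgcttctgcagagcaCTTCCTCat
The letters TATAAA on the gene strand lie at -31 to -26 in Ccl12, -32 to -27 in Ccl8 and -92 to -87 in Ccl9, counted back from the start, and occur in 7.59% of 32851 RefSeq promoter windows of this length. The remaining motifs were searched on both strands. The NF-kB consensus was found on the other strand of Ccl9 at -35 to -26 (3.9% of windows), and the AP-1 letters TGANTCA on its gene strand at -53 to -47 (6.75%). The C/EBP letters TTGCNNAA were found in Pf4 at -212 to -205 (9.56%). The PU.1 letters GAGGAAG, read on the other strand, were found in Ccl8 at -241 to -235 and in Pf4 at -9 to -3 (10.6%). The core of the interferon-stimulated response element (GAAA, any 2 bases, GAAA) was found in 0 of the 6 (2.98%). None of the 6 motifs was found in Ccl3 or Ccl6. No searched motif overlapped another in these windows, and a match is a description of letters only.

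Receptors for these ligands were mostly low in all 3 populations. The 7 receptors analysed are given here. Ccr2, the receptor of Ccl2, Ccl7 and Ccl12, was at 6.57 ± 0.22 in TZM, 7.06 ± 0.12 in CD8a+DC and 5.54 ± 0.28 in microglia. It was the only receptor called higher in TZM than in microglia (1.03, adjusted p = 0.0019), and it was lower in microglia than in CD8a+DC (-1.52, adjusted p = 0.00013). Cxcr3, a chemokine receptor of activated T cells also reported to bind Pf4, was at 8.48 ± 0.15 in CD8a+DC, and was lower in TZM (-2.74, adjusted p = 7e-06) and in microglia (-2.81, adjusted p = 4.4e-06). Ccr1 had means of 3.45, 3.26 and 3.92 in TZM, CD8a+DC and microglia. Those of Ccr3 were 4.10, 3.94 and 4.19, and those of Ccr8 3.29, 3.24 and 3.22. The scavenging receptors Ackr1 (3.74, 3.74 and 3.53) and Ackr2 (4.02, 4.11 and 4.04) were low as well. None of these 5 was called in any comparison.

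The other chemokine genes moved differently. Of 26 measured, TZM were higher than CD8a+DC in 5 and lower in 1, where 4.71% and 4.03% of all genes were called. TZM were higher than microglia in 9 and lower in 0 (4.25% and 3.4% of all genes). Microglia were higher than CD8a+DC in 1 and lower in 5 (5.15% and 6.01% of all genes). The counts of 0 and 1 were near the shares over all genes. Medians were 0.10, 0.23 and -0.01. Cxcl9, an attractant of activated T cells, was at 12.03 ± 0.11 in TZM, 11.89 ± 0.03 in CD8a+DC and 5.40 ± 1.3 in microglia, where replicate 2 read lowest at 4.07. Its TZM excess over microglia was 6.63, and that of Ccl22, a Ccr4 ligand, was 3.42. Cxcl13, the B cell follicle chemokine, was at 8.33 ± 0.34 in TZM and exceeded CD8a+DC by 3.43 and microglia by 3.32. Cxcl2, a neutrophil attractant, exceeded CD8a+DC by 3.23 in TZM and by 2.13 in microglia, and Cxcl10 and Ccl19 did so by 1.91 and 1.71 in TZM. Ccl22 was lower in TZM than in CD8a+DC (-1.20). Microglia were below CD8a+DC in Cxcl9 (-6.49), Ccl5 (-5.20) and Ccl22 (-4.61).

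The NF-kB pathway drives many inflammatory chemokines. Of 20 of its genes measured, 2 were higher in TZM than in CD8a+DC and 5 lower, where 4.71% and 4.03% of all genes were called, with a median of 0.05. Il1a was higher by 6.53, while Il1b (-3.10), Traf1 (-1.99) and Il6 (-1.56) were lower. Against microglia, 4 were higher in TZM and 6 lower (median -0.41), where 4.25% and 3.4% of all genes were called. Among them were Traf1 (2.29), Bcl3 (2.15), Il6 (-2.36) and the cytokine Tnf (-2.10). Against CD8a+DC, 5 were higher in microglia and 4 lower (median -0.14), where 5.15% and 6.01% of all genes were called. Il1a was higher in microglia by 7.74 and the regulators Nfkbiz and Tnfaip3 by 2.36 and 1.81, while Traf1 was lower (-4.28).

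Immediate early genes respond within minutes to stimulation or cell handling. Of 25, 13 were called lower in TZM than in microglia and 0 higher, with a median of -1.01. Over all genes 3.4% were called lower and 4.25% higher, so the count of 0 was near its share. Ier3 (-3.36), Nr4a1 (-3.11), Btg2 (-2.71) and Ier2 (-1.86) had the largest differences. Against CD8a+DC, 4 were higher in TZM and 8 lower (median -0.15), where 4.71% and 4.03% of all genes were called. Among them were Rhob (2.77), Nr4a2 (-4.00), Nr4a1 (-3.84) and Nr4a3 (-3.41). Against CD8a+DC, 10 were higher in microglia and 4 lower (median 0.78), where 5.15% and 6.01% of all genes were called. Among them were Rhob (3.86), Myc (2.68), Nr4a2 (-4.63) and Nr4a3 (-3.98). The lower TZM levels of Ccl3 and Ccl4 against microglia thus stood beside lower immediate early genes. Their part in the result was not tested.

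Genes nearest in pattern were ranked by the root mean square (RMS) difference of log2 values over the 9 arrays, after centring each gene on its own mean. For Ccl12 these were the complement genes C1qc (0.34) and C1qa (0.42) and Mertk (0.57), a phagocytic receptor that was itself a gate of the TZM sort. For Ccl8 they were the growth factor Igf1 (0.50), Cxcr2 (0.60) and the phospholipase Pla2g2d (0.61). Ccl7 was nearest to Mrc1 (0.58), Slc16a7 (0.67) and Pf4 (0.77), and Pf4 to Clec5a (0.60), Abca1 (0.61) and Cmklr1 (0.64). Ccl4 was nearest to the immediate early gene Ier3 (0.21), then Asph (0.35) and Arhgap5 (0.35). For Ccl3 the nearest were Frmd4a (0.11), Il1rl2 (0.13) and Srgap2 (0.16), and for Ccl2 Lgals8 (0.12), Gstm5 (0.22) and Nrp1 (0.27). For Ccl9 they were Rin2 (0.27), Txnip (0.28) and Scamp5 (0.30), and for Ccl24 Dtx4 (0.27), Epha2 (0.29) and Ccrl2 (0.30). Group means of Ccl6 spanned less than 2, the minimum for this ranking. With 9 arrays of 3 populations, likeness mostly reflects the order of 3 group means.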

How the data were processed

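RNA was measured on 9 Affymetrix arrays. The authors deposited log2 values, made by RMA (robust multi-array average) in Affymetrix Expression Console 1.3.1, per the submitters' processing notes; further settings are not given in the sources used here. RMA normalizes across arrays, so a change shared by most genes would not be seen. Of 35556 probe sets, 21789 had 1 gene symbol, 1621 several and 12146 none. The brightest single-symbol probe set per gene was kept (19938 genes). No detection call was used, and precision is limited by the number of arrays. The test was limma's (version 3.58.1, R 4.3.3; lmFit, then eBayes), with group as the sole term and the 9 arrays fitted together, and Benjamini-Hochberg adjustment over all genes. On simulated data of 19938 genes, 200 of them shifted, shifts of 1.5 (log2) were recovered for 97% of genes in TZM against CD8a+DC, 90% between TZM and microglia and 96% between microglia and CD8a+DC. Genes named were all members, every receptor and up to 4 called genes per pathway list and comparison by size. Up to 3 markers per list by range were named too, as were the 3 nearest genes of members spanning at least 2. Csf1r, Fcgr1, Sall1, Xcr1, Cd14, P2ry12, Irf8, Itga2b, Ppbp, Treml1, Siglec1, Cd5, Cldn5 and Ccl11 were named outside this rule, after their values were seen. The members and lists were chosen with earlier results of these data known. Alternatives tried were a call without the fold minimum, a filter on level (6 or above on 3 or more arrays), centring on the median, quantile normalization, the mean of probe sets, only the compared groups, trended and robust eBayes, the replicate number as a block, and arrays left out.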

Additional observations from a re-analysis of the deposited data

How the results depend on the processing

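Each result was recomputed under 18 alternatives, of which leaving out TZM replicate 2 and microglia replicate 2 together was chosen after seeing the data. Across them TZM were higher than CD8a+DC in 6 to 7 of the 10 chemokines and microglia in 9 to 10, and the other counts of calls did not move. Ccl3 joined the calls for TZM against CD8a+DC with no minimum fold change (0.95), with quantile normalization (1.01, adjusted p = 8.4e-05), without TZM replicate 2 (1.05) and with both arrays left out (1.05). Ccl8 joined those for microglia against CD8a+DC without microglia replicate 2 and with both arrays left out (1.41 in each). TZM less microglia reversed for Ccl7 without microglia replicate 2 (-0.37, adjusted p = 0.72) and with both arrays left out (-0.63, adjusted p = 0.53), and the cause was not tested; leaving out single arrays gave -0.37 to 0.84. For Ccl12 the same difference ran from 0.31 to 0.65, with adjusted p from 0.029 to 0.22. Deviations of samples with the same replicate number correlated at -0.145 to 0.128, and those of samples with different numbers at -0.19 to 0.149. With so few arrays per group this cannot settle whether the numbers pair the samples, and the labels do not say. The fit with a replicate block called the same 6 chemokines higher in TZM than in CD8a+DC and changed no other member's call. For Ccl2 it lowered the limma adjusted p of TZM less microglia from 0.23 to 0.0096. That difference stayed at -0.41, under the fold minimum. With no minimum fold change the calls over all genes rose from 939 to 1960 higher and 804 to 2065 lower for TZM against CD8a+DC, from 848 to 2001 and 678 to 1872 for TZM against microglia, and from 1026 to 2400 and 1198 to 2606 for microglia against CD8a+DC. Levels near the olfactory receptor range limit the folds of Ccl8, Ccl12 and Pf4, and in part of Ccl7, against CD8a+DC, and of Ccl8 against microglia.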
